A study of Homo sapiens with 15 samples.

Results

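Replicate 3 and replicate 1 of the same T-DM1-resistant clone were compared here across 4 clones. The comparison takes the 8 clone arrays titled rep3 or rep1, out of 15 arrays in the series, as 1 pair within each of 4 clones. BT474 is a HER2-amplified human breast cancer cell line, and T-DM1 is trastuzumab emtansine, an antibody against HER2 linked to a microtubule poison. The clones came from single BT474 cells after prolonged T-DM1 exposure and were then grown in 5 nM T-DM1 for 3 months, and each clone is 1 clonal line with 3 arrays. The clones grew in DMEM with serum, and whether the drug was present when RNA was taken is not stated. The other arrays are 4 clone arrays titled rep2 and 3 arrays of the parental line, and they are set only beside the pairs. Where 4 values stand together, they are log2 expression values or differences in the clone order C#1, C#2, C#3, C#6. The arrays are called biological replicates in the labels, which do not say whether equal numbers of different clones mark a shared harvest, culture batch or array run. No batch or scan date was used. P-values here therefore measure the spread between these 4 within-clone differences, which limma draws toward a spread common to all genes. Each SE given is this moderated value, not the plain SE of the 4 differences. The fit takes the 4 differences as independent. Deviations from the clone mean correlated between clones C#1 and C#2, at r = 0.46 in replicate 1 and 0.34 in replicate 3. If the differences of these clones are not independent, the p-values may be too small.

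A culture of growing cells holds cells in all stages of the cycle, and the genes for the DNA replication machinery are transcribed mainly around the entry into S phase, largely under the E2F transcription factors. Other sets respond within hours to the state of a culture. ATF4 drives amino acid synthesis genes when amino acids run short or stress kinases are active, and ERK signalling induces its own feedback inhibitors of the SPRY and DUSP families.

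The 8 arrays had upper quartiles between 5.83 and 5.89 log2 units over all probe sets, and the 2 arrays of a clone pair correlated across probe sets at r between 0.986 and 0.989. Of the markers of luminal epithelium fixed for the check, 10 had a symbol and all passed the filter on dim signals, with KRT19, a luminal keratin, the highest at a mean of 10.9. Their mean level was 8.87 to 9.07 in replicate 3 and 9.05 to 9.26 in replicate 1. Mean levels of single leukocyte markers were 3.25 to 4.23, of fibroblast markers 2.74 to 2.77 and of endothelial markers 2.97 to 3.96. With limma 0 of the 14 markers tested were called different between the replicates, beside 0.906% of all genes. Of the 14, 3 had an unadjusted limma p below 0.05, all lower in replicate 3, against 1703 of 12147 genes over all. With so few markers, 0 calls does not show that they were unchanged. Adipocyte markers had no symbol here.

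Many DNA replication genes were higher in replicate 3. The stress cytokine GDF15, 4 amino acid response genes and the ERK feedback inhibitors SPRY4 and DUSP6 were lower in it. Of 12147 genes tested, 64 (0.527%) were higher in replicate 3 and 46 (0.379%) were lower at a limma adjusted p below 0.05. Together these were 110 genes (0.906%), each with the same sign in all 4 clones, and 60 of them had 4 replicate 3 arrays that did not overlap the 4 replicate 1 arrays. Over all genes tested, 322 (2.65%) had every replicate 3 array above every replicate 1 array and 246 (2.03%) had every one below. The sizes were moderate, since 6 of the higher and 6 of the lower genes passed 2-fold. The median difference over all genes was -0.0015 log2 units and 49.6% of genes lay above 0. In a bulk sample, fewer cells in a state and less RNA per cell cannot be told apart. The counts fell without the pair of clone C#1, C#2 or C#6 and rose without that of C#3. Without the pair of clone C#1, limma called 1 higher and 6 lower genes, without C#2 11 and 11, without C#3 164 and 61, and without C#6 0 and 2, with 1402 genes below an unadjusted p of 0.05 in the last.

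**Figure D1:**
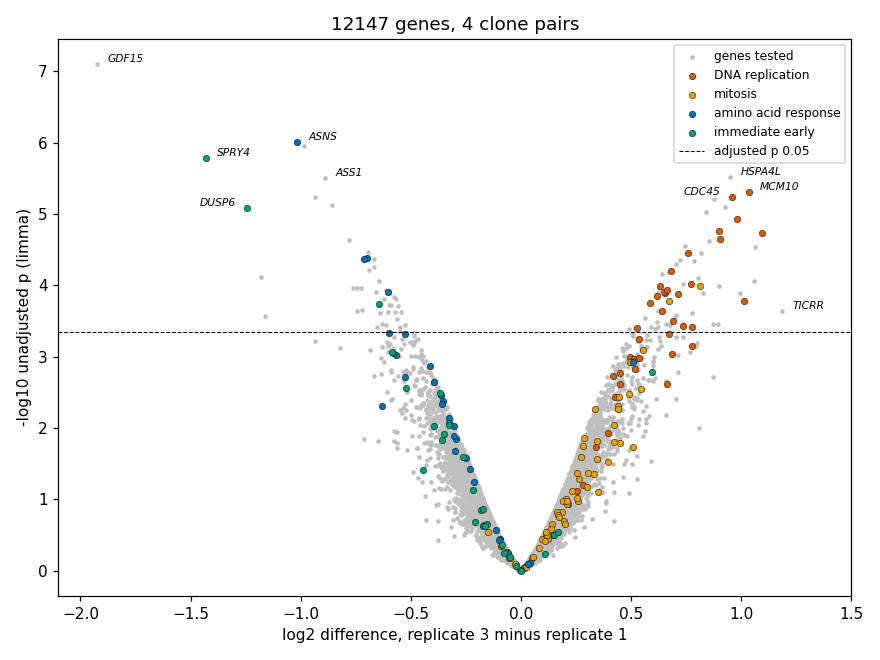
Difference between replicate 3 and replicate 1 (horizontal, log2) against the unadjusted limma p (vertical, -log10) for 12147 genes over 4 clone pairs, with the members of 4 gene lists coloured and a dashed line at the adjusted p threshold. DNA replication genes lie mostly on the right, amino acid response genes mostly on the left, and GDF15 is the farthest to the left at -1.93.

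The DNA replication list held the most calls. This list, like the others, was put together with earlier results of these data known. Its shares beside those of all genes therefore describe it and are no independent test. Of 42 tested genes of the list, 22 (52.4%) were higher in replicate 3 and 0 were lower, beside 0.527% higher over all genes. The median difference was 0.65 log2 units, against -0.0015 over all genes. For 36 of the 42 genes replicate 3 was above replicate 1 in all 4 clones, against 11.5% of all genes. For 25 every replicate 3 array lay above every replicate 1 array, against 2.65% of all genes. The mean level of the list was 8.46, 8.46, 8.40 and 8.59 in replicate 3 of the 4 clones, against 7.70, 7.78, 8.06 and 7.91 in their replicate 1 arrays. All replicate 3 levels lay above all replicate 1 levels, and clone C#3 had the highest level in replicate 1. The list's difference was 0.75, 0.67, 0.34 and 0.68 in the 4 clones. Clone C#3 had the smallest difference of the 4 for 31 of the 42 genes, and with 1 pair a clone the difference between clones was not tested.

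The replicative helicase and its loaders were among the higher genes. MCM10, which helps to activate the helicase, was measured at 8.90, 8.92, 8.86 and 8.99 in replicate 3 of the 4 clones, against 7.74, 7.70, 8.23 and 7.86 in replicate 1. All replicate 3 arrays of MCM10 lay above all replicate 1 arrays, with a difference of 1.04 ± 0.12 log2 units (SE, 4 pairs) and a limma adjusted p of 0.00759. CDC45, a helicase subunit, was 7.69, 7.96, 7.87 and 8.22 in replicate 3, against 6.76, 6.76, 7.21 and 7.18 in replicate 1. The 2 sets of CDC45 arrays did not overlap either, at 0.96 ± 0.11 (SE, 4 pairs) and a limma adjusted p of 0.00759. CLSPN encodes claspin, an adaptor of the replication checkpoint, and had 9.08, 8.95, 8.82 and 9.15 in replicate 3, against 7.63, 7.83, 8.33 and 7.85 in replicate 1. Its difference was 1.09 ± 0.15 (SE, 4 pairs; limma adjusted p = 0.0132) without overlap. A second CLSPN probe set, near the background at a mean of 3.01, differed by 0.39.

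MCM2, MCM3, MCM5 and MCM6, subunits of the helicase ring, passed the test. MCM5 differed by 0.76, MCM2 by 0.68, MCM6 by 0.67 and MCM3 by 0.65, each without overlap between replicate 3 and replicate 1. The other ring subunits, named for their role after their values were seen, were MCM4 at 0.51 (limma adjusted p = 0.0681) and MCM7 at 0.42 (limma adjusted p = 0.0901). GINS1 and GINS2, subunits of the complex that joins CDC45 on the ring, were higher by 0.53 and 0.71. CDC6, which loads the ring on origins, was higher by 0.90, and DTL, which directs the licensing factor CDT1 to degradation, by 0.90.

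Nuclease, repair and nucleotide genes were also higher in replicate 3. EXO1, an exonuclease of mismatch repair and end resection, was between 9.0 and 9.47 in replicate 3, against 8.11, 8.12, 8.37 and 8.64 in replicate 1 of the 4 clones. The difference of 0.98 ± 0.13 (SE, 4 pairs) had a limma adjusted p of 0.00945. FEN1, the flap endonuclease of lagging strand synthesis, was higher by 0.77, BRIP1, a helicase of crosslink repair, by 1.01 and RRM2, a subunit of ribonucleotide reductase, by 0.62. Fork and chromatin factors followed the same direction, with TIPIN at 0.73, WDHD1 at 0.64, the histone chaperone ASF1B at 0.66 and UHRF1, which helps to copy DNA methylation, at 0.58. The cyclin CCNE2 was higher by 0.69, and E2F7 and E2F8, repressors that are themselves E2F targets, were higher by 0.63 and 0.78. PCNA, the sliding clamp, had 0.45 and did not pass (limma adjusted p = 0.102). SLBP, which binds histone mRNA, was the 1 list member below 0, at -0.09.

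Higher genes outside the list included further genes of S phase. TICRR, which is needed to fire origins, showed the largest difference of the higher genes at 1.18 ± 0.21 (SE, 4 pairs; limma adjusted p = 0.0351). Its replicate 3 values were 8.69, 8.89, 8.32 and 8.23, against 6.90, 7.13, 7.99 and 7.37 in replicate 1, without overlap, and clone C#3 had the smallest gap. CDCA7, an E2F-regulated nuclear protein, was 6.86, 6.80, 6.91 and 6.93 in replicate 3 against 5.84, 5.90, 6.30 and 6.08 in replicate 1. Its 2 sets of arrays were apart by 0.84 ± 0.11 (SE, 4 pairs; limma adjusted p = 0.00814). PCLAF, which binds PCNA, was higher by 0.70, WDR76 by 0.91 and PSMC3IP, a recombination factor, by 0.72.

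The DNA replication count changed with the pairs used. It was 0 without the clone C#1 pair, 4 without C#2, 29 without C#3 and 0 without C#6, while the list median lay between 0.58 and 0.72 log2 units in these fits. It was 9 with clones C#1 and C#2, whose arrays lie close together, averaged to 1 pair, and 6 in a fit of 15 arrays with the parental line. It was 0 in a fit without the clone block and 35 in a fit of 12 clone arrays.

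Promoter windows of 4 of these genes are shown because they hold the core E2F letters GCGNGAA, searched on both strands. They run from 250 bases before to 50 after the gene start, from RefSeq on GRCh38.p14, with the matches in capitals, and a match on the other strand reads TTCNCGC.
MCM3 (chr6:52284693-52284992, minus strand): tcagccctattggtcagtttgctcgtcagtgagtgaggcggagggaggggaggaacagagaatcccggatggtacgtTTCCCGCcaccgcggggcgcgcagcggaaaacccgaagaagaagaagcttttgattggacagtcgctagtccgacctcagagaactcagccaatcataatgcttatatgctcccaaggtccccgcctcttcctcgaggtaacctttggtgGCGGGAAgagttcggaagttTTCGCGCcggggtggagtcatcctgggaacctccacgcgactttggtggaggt
MCM6 (chr2:135876394-135876693, minus strand): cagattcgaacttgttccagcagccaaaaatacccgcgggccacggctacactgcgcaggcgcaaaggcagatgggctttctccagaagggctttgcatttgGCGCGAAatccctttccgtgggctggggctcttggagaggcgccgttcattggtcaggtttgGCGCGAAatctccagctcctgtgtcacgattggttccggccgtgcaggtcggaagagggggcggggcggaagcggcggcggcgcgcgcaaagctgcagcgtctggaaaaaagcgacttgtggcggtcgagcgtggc
CLSPN (chr1:35769929-35770228, minus strand): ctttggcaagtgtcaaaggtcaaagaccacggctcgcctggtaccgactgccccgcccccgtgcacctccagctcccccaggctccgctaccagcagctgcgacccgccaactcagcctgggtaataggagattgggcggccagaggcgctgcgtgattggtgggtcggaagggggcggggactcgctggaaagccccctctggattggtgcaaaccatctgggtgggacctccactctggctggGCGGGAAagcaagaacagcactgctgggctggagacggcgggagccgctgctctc
CDCA7 (chr2:173354622-173354921, plus strand): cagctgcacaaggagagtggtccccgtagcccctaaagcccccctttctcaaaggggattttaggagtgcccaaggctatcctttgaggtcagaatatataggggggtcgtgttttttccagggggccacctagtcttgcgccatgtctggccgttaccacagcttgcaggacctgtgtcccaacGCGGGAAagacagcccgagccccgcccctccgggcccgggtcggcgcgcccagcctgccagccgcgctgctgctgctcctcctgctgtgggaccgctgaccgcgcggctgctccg
MCM3 holds 3 matches, starting at -173, -23 and -3 from the gene start, MCM6 holds 2 at -148 and -86, CLSPN 1 at -5 and CDCA7 1 at -65. Of the 22 replication genes that passed the test, 19 had a window and 10 of those (52.6%) held a match, against 20 of 36 (55.6%) of all tested genes of the list with a window. The members that passed thus held the letters no more often than the tested list. Of the amino acid response genes tested, 8 of 26 (30.8%) held them. Among all 64 higher genes 55 had a window and 21 (38.2%) held one, and among the 46 lower genes it was 2 of 29 (6.90%). Over the genes tested it was 1574 of 9176 (17.2%) and over all promoters given by RefSeq 3349 of 27305 (12.3%). MCM10, CDC45 and CDC6 held none in this window. A match describes letters in the window only.

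Mitosis genes act later in the cycle. Of 64 mitosis genes, 2 (3.13%) were higher in replicate 3 and 0 were lower, beside 0.527% higher over all genes. The list median was 0.20. CENPI, a centromere protein, was 8.44, 8.64, 7.93 and 8.42 in replicate 3 against 7.46, 7.50, 7.60 and 7.61 in replicate 1 of the 4 clones. SKA3, which ties kinetochores to microtubules, was 8.17, 8.12, 7.87 and 8.61 in replicate 3 against 7.31, 7.39, 7.58 and 7.80 in replicate 1. Neither gene's arrays overlapped, with differences of 0.81 and 0.67 (limma adjusted p = 0.0259 and 0.0299). Clone C#3 stood apart in this list, since 22 of its 64 genes were above 0, against 54 in C#1, 58 in C#2 and 52 in C#6. The list's mean difference was 0.33 in C#1, 0.38 in C#2, -0.09 in C#3 and 0.25 in C#6. The common markers did not pass, with MKI67, the Ki-67 antigen, at 0.30 (limma adjusted p = 0.334), the mitotic kinase PLK1 at 0.05 and cyclin B1, CCNB1, at -0.06. Without the C#3 pair 10 mitosis genes passed, and without any other single pair 0 did.

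**Figure D2:**
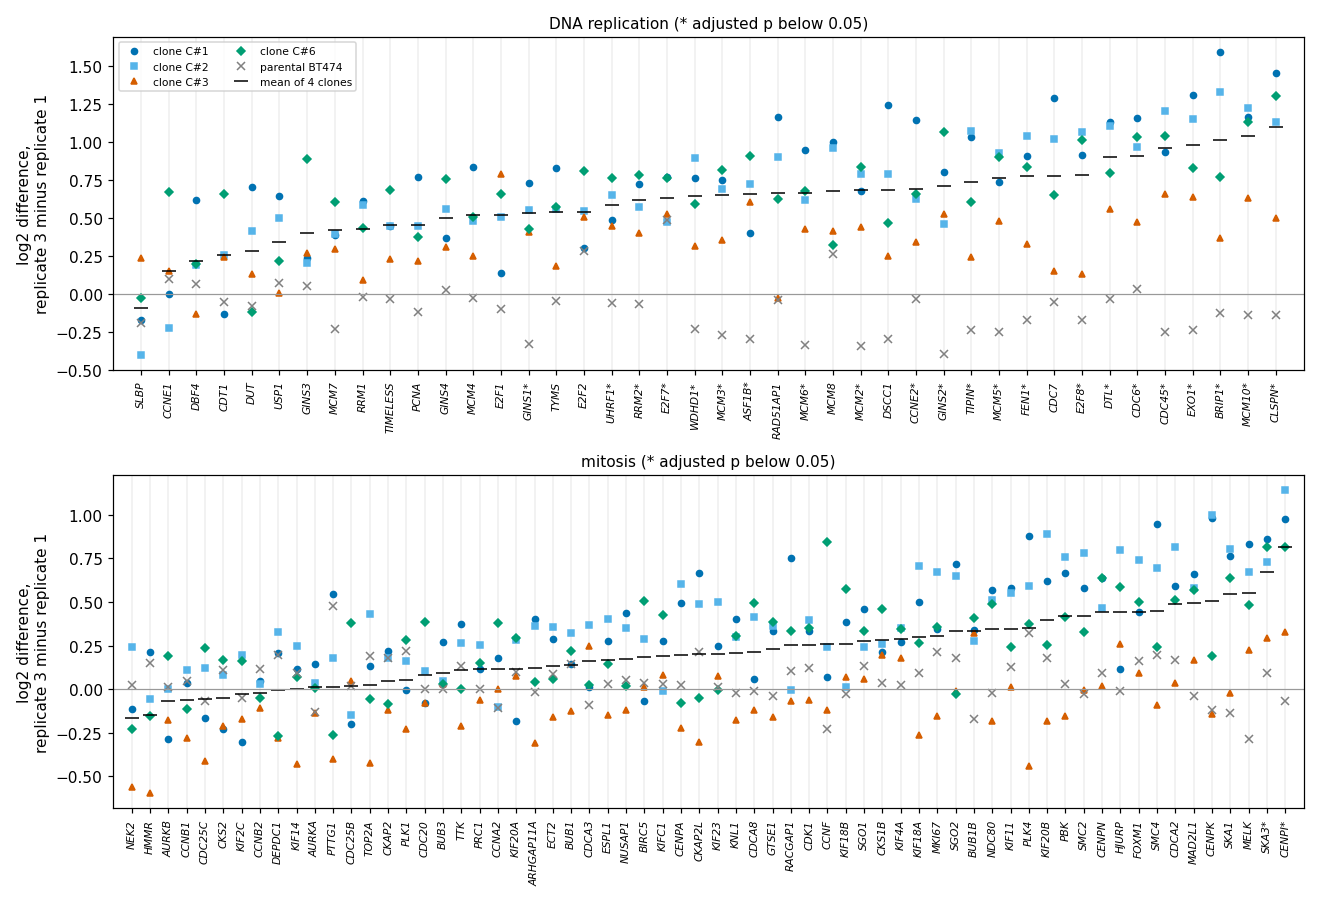
Difference between replicate 3 and replicate 1 (log2, vertical) for each tested gene of the DNA replication list (upper panel) and the mitosis list (lower panel), with 1 symbol per clone, grey crosses for the parental line and a bar for the mean of the 4 clones. In the upper panel most clone points lie above 0 with orange triangles of clone C#3 lowest, and in the lower panel the triangles lie around or below 0.

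GDF15, a stress-induced cytokine of the TGF-beta family, had the largest difference of all genes tested. It was 7.04, 7.63, 6.20 and 7.15 in replicate 3 of the 4 clones, against 9.36, 9.64, 7.55 and 9.16 in replicate 1. It was lower by more than 1 log2 unit in each clone, and the groups overlap because clone C#3 was low in both arrays. The difference was -1.93 ± 0.15 log2 units (SE, 4 pairs), a 3.80-fold lower level, with a limma adjusted p of 0.000961. Of the within-clone sum of squares of GDF15 over the 12 clone arrays, 93.8% lay between replicate numbers, against a median of 27.7% over all genes. It was also the most variable gene within clones, with a pooled SD of 1.04 against a median of 0.164. It was the 1 gene of 16 tested p53 targets that passed (6.25%), beside 0.379% lower over all genes. The list named 28 genes, and those without a symbol were not tested. CDKN1A, 1 of the fixed genes, was not among the genes tested. PLK2, a stress-induced kinase of the p53 target list, had -0.63 (limma adjusted p = 0.0593).

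Some amino acid response genes were lower in replicate 3. Of 31 tested genes 4 (12.9%) were lower and 0 were higher, beside 0.379% lower over all genes. The list median was -0.31, and 23 genes were below replicate 1 in all 4 clones, against 10.4% of all genes. ASNS, asparagine synthetase, was 7.30, 7.37, 6.76 and 7.22 in replicate 3 of the 4 clones, against 8.37, 8.25, 7.73 and 8.37 in replicate 1. The 2 sets did not overlap, and the difference was -1.02 ± 0.10 (SE, 4 pairs; limma adjusted p = 0.00450). PCK2, the mitochondrial form of phosphoenolpyruvate carboxykinase, was 7.01, 7.10, 6.80 and 6.88 in replicate 3 against 7.62, 7.84, 7.46 and 7.29 in replicate 1, again without overlap. DDIT4, an inhibitor of mTORC1, was 9.12, 9.03, 8.26 and 8.68 in replicate 3 against 9.81, 9.95, 8.82 and 9.31 in replicate 1. The DDIT4 groups overlap, although each clone was lower, by 0.70 on average (limma adjusted p = 0.0180). STC2, a secreted glycoprotein induced by stress, was lower by 0.71 on average, and CARS1, a tRNA synthetase, had -0.52 without passing (limma adjusted p = 0.0510). Without the pair of clone C#1 or C#2 1 member passed, without C#3 4 did and without C#6 0 did. The ATF5 transcription factor, named after its values were seen, lay the other way at 0.51 (limma adjusted p = 0.0722).

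The ASNS promoter is shown because it holds the composite C/EBP-ATF response letters TGATGNAA, in capitals, in the RefSeq window on GRCh38.p14.
ASNS (chr7:97872359-97872658, minus strand): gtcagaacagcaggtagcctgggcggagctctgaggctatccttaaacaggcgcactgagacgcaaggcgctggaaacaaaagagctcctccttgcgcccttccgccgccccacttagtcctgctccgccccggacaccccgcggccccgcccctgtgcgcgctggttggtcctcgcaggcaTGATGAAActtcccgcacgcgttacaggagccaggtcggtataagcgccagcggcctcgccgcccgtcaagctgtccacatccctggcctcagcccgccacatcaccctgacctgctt
The match starts at -68. These letters were found on either strand in 8 of 26 amino acid response genes with a window (30.8%), in 164 of 9176 genes tested (1.79%) and in 1003 of 27305 promoters (3.67%). Of the 4 members that passed the test, ASNS alone held them.

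**Figure D3:**
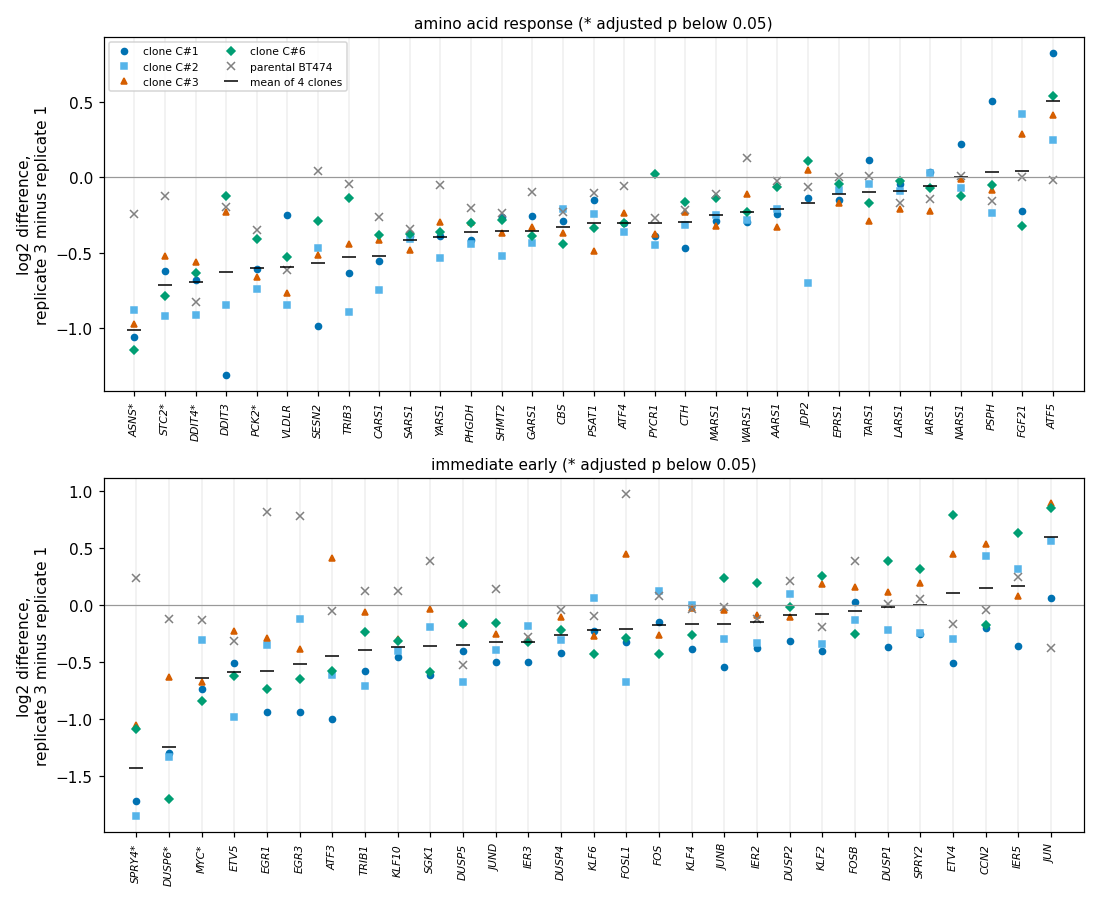
Difference between replicate 3 and replicate 1 (log2, vertical) for each tested gene of the amino acid response list (upper panel) and the immediate early list (lower panel), with 1 symbol per clone, grey crosses for the parental line and a bar for the mean of the 4 clones. The bars lie below 0 for 27 of 31 amino acid response genes and 24 of 29 immediate early genes, with ATF5 and JUN highest.

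SPRY4 and DUSP6, feedback inhibitors of ERK signalling, were lower too. Of 29 immediate early and ERK feedback genes 3 (10.3%) were lower in replicate 3 and 0 were higher, beside 0.379% lower over all genes. The list median was -0.22, against -0.0015 over all genes. SPRY4, which dampens signalling from receptor tyrosine kinases, was 6.01, 6.46, 6.04 and 6.31 in replicate 3 against 7.73, 8.32, 7.09 and 7.39 in replicate 1 of the 4 clones. All its replicate 3 arrays lay below its replicate 1 arrays, by 1.43 on average (SE 0.15, limma adjusted p = 0.00498). DUSP6, the phosphatase that acts on ERK, was 7.31, 7.57, 6.73 and 6.56 in replicate 3 against 8.61, 8.90, 7.36 and 8.26 in replicate 1. The DUSP6 groups overlap because of the low replicate 1 array of clone C#3, and the difference was -1.24 ± 0.15 (SE, 4 pairs; limma adjusted p = 0.00777). MYC was lower by 0.64 on average (limma adjusted p = 0.0318), with a smaller gap in clone C#2. EGR1, an immediate early transcription factor, had -0.58 (limma adjusted p = 0.0646), CCND1, cyclin D1, had -0.27 (limma adjusted p = 0.236), and JUN, named after its values were seen, had 0.59 (limma adjusted p = 0.0831). Without the clone C#1 or C#6 pair 1 gene of the list passed, without C#2 3 did and without C#3 6 did.

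Among the lower genes of other functions, ADCY1, an adenylyl cyclase, was 7.20, 7.73, 7.16 and 7.38 in replicate 3 against 8.23, 8.60, 8.23 and 8.34 in replicate 1 of the 4 clones. Its groups did not overlap, at -0.98 ± 0.10 (SE, 4 pairs; limma adjusted p = 0.00450), with 4 differences from -1.07 to -0.87. ASS1, argininosuccinate synthase of arginine synthesis, was 9.43, 9.52, 7.84 and 8.13 in replicate 3 against 10.22, 10.35, 8.84 and 9.08 in replicate 1. ASS1 was lower in every pair, by 0.89 on average (limma adjusted p = 0.00626), yet the groups overlap because clones C#3 and C#6 held less of it in both arrays. EPPK1, epiplakin of the epithelial cytoskeleton, was lower by 0.86 and ULBP1, a ligand for the NKG2D receptor of natural killer cells, by 1.16. NFKB2, a subunit of NF-kB, was lower by 0.60. CD44, an adhesion receptor, was lower by 0.72 on average with overlapping groups. Its differences were -0.95, -0.93, -0.24 and -0.76 in the 4 clones.

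Of the chaperone genes, HSPA4L passed the test and was higher in replicate 3. This relative of HSP110 was 6.75, 6.90, 6.29 and 6.22 in replicate 3 of the 4 clones, against 6.02, 5.79, 5.29 and 5.27 in replicate 1. All replicate 3 arrays lay above all replicate 1 arrays, by 0.95 ± 0.10 (SE, 4 pairs; limma adjusted p = 0.00626). It was the 1 of 14 heat shock genes that passed (7.14%), beside 0.527% higher over all genes. In this list 10 genes were above replicate 1 in all 4 clones, against 11.5% of all genes, and the median was 0.22. HSPH1 had 0.46 (limma adjusted p = 0.0732), and the inducible HSPA1A, whose near-identical copy HSPA1B shares its sequence, had 0.41 (limma adjusted p = 0.134). CHORDC1P4, a pseudogene, was higher by 0.88 (limma adjusted p = 0.00759), and its parent gene CHORDC1, an HSP90 partner, had 0.66 (limma adjusted p = 0.0960). The array may not separate the 2 copies. ODC1, which starts polyamine synthesis, was higher by 0.67 and ARRDC3, an arrestin-like adaptor, by 0.74. CEACAM6 and CEACAM7, cell surface glycoproteins of epithelia, were higher by 0.87 and 0.99.

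Of 524 microRNA genes tested, 4 (0.763%) were lower and 0 were higher, beside 0.379% lower over all genes, which is no result about microRNA genes as a class. MIR3189, inside the GDF15 gene, was lower by 1.18, MIR200C by 0.67, MIR205 by 0.54 and MIR612, inside NEAT1, by 0.57. MIR200C was 4.82, 5.21, 5.50 and 4.96 in replicate 3 of the 4 clones, against 5.43, 5.74, 6.16 and 5.82 in replicate 1. MIR205 was 3.62, 4.06, 3.76 and 3.48 in replicate 3 against 4.13, 4.74, 4.34 and 3.89 in replicate 1. MIR3189 was 3.50, 4.39, 3.01 and 2.93 in replicate 3 against 5.35, 5.67, 3.40 and 4.12 in replicate 1. Its differences were -1.86, -1.28, -0.40 and -1.19. The array medians over all probe sets lay between 4.03 and 4.08 in replicate 3 of the 4 clones. MIR3189 and MIR205 lay below this in replicate 3 of clones C#1, C#3 and C#6, so their signals were dim there. MIR3189, MIR200C and MIR205 were lower in each clone with overlapping groups. These microRNA genes lie within longer transcripts, so a probe set need not report the mature form.

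The other lists gave few calls or none. With limma, 0 genes were called in each of these lists: glycolysis and hypoxia, cholesterol, fatty acid synthesis and oxidation, YAP, interferon, oxidative stress, metallothionein, autophagy, circadian, glucocorticoid, iron, oxidative phosphorylation, tRNA synthetase and small nucleolar RNA genes. Over all genes 0.906% were called, so lists of this size can hold 0 calls without being unchanged. In these 15 lists, 38 of 246 genes had an unadjusted limma p below 0.05, against 1703 of 12147 genes over all. Of the 38, 27 were lower in replicate 3. Of 17 tRNA synthetase genes, 10 were below replicate 1 in all 4 clones, against 10.4% of all genes. Their mean difference was -0.15, -0.21, -0.18 and -0.11 in the 4 clones. In the fit of 12 clone arrays 3 of them were called lower, beside 0.93% of all genes. TXNIP, a glucose-responsive gene, had -0.35 and HMGCS1, of cholesterol synthesis, had -0.23, and neither passed (limma adjusted p = 0.166 and 0.390). Hexokinase 2, HK2, had -0.01. Among 51 ribosomal protein genes 1 (1.96%) was called higher, beside 0.527% over all genes, and the list median was -0.05. That gene, RPS26, was higher by 0.64, with its replicate 3 arrays above all its replicate 1 arrays.

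**Figure D4:**
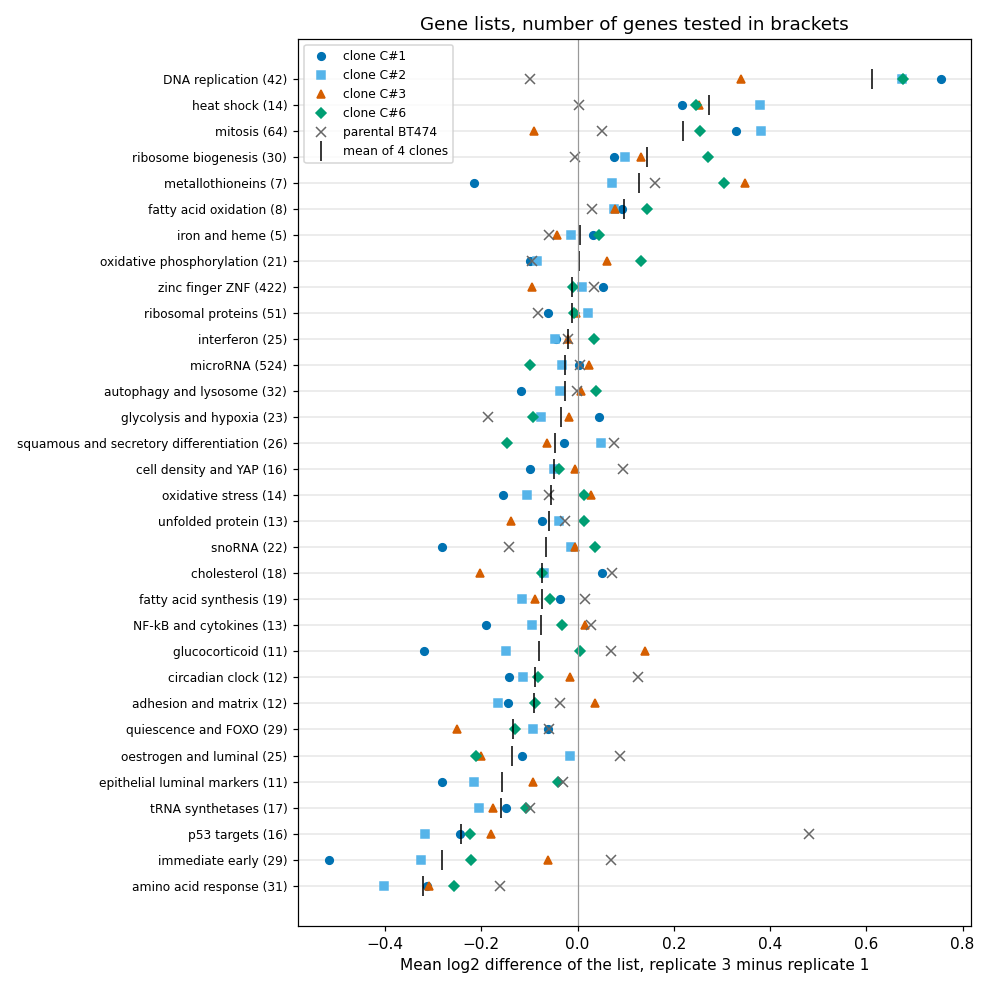
Mean difference between replicate 3 and replicate 1 (log2, horizontal) for each gene list with at least 5 tested genes (vertical, number of genes in brackets), with 1 symbol per clone, crosses for the parental line and a bar for the mean of the 4 clones. The mean of the DNA replication list lies farthest to the right, with clones at 0.34 to 0.75, and amino acid response genes lie left of 0 in each clone, at -0.40 to -0.26.

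The parental line, as 1 further pair, served as a check of whether the same numbers differ outside the clones. The plan was to give its values only, and the limma test against the clones below was added to that plan. Its replicate 3 array minus its replicate 1 array gave -0.10 for the mean of the DNA replication genes, and 33 of these 42 genes were below 0, against 48.3% of all genes. CLSPN in the parental line was 8.20 in replicate 3 against 8.34 in replicate 1, and MCM10 was 8.21 against 8.36. GDF15 was 7.43 in replicate 3 against 7.18 in replicate 1 of the parental line, where the clones were lower by 1.93 on average. Amino acid response genes had a mean of -0.16 in the parental pair, with 26 of 31 below 0 and DDIT4 at -0.83, the same sign as in the clones. With 1 parental pair, limma's test of the clone difference against the parental difference called 0 genes at an adjusted p below 0.05, with a lowest adjusted p of 0.161 and 635 genes below an unadjusted p of 0.05. Without the pair of clone C#3 it called 1 gene, GDF15, whose clone difference minus the parental difference was then -2.37 (limma adjusted p = 0.0110). The parental arm is 1 pair, so this p holds no spread of the parental line, and the main fit with all 4 clones did not make the call. In the main fit with all 4 clones, no gene was shown to differ between the clones and the parental line in this respect.

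Replicate 2 was set beside both numbers in a limma fit of all 12 clone arrays, chosen after the data were seen. Since the comparisons share arrays, their counts are not independent. Replicate 3 minus replicate 1 gave 189 higher (1.56%) and 113 lower genes (0.93%) in this fit. Replicate 2 minus replicate 1 gave 52 higher (0.428%) and 54 lower (0.445%), and replicate 3 minus replicate 2 gave 1 higher (0.00823%) and 2 lower (0.0165%), with 630 genes below an unadjusted p of 0.05. The 3 genes of the last comparison were CDCA7 at 0.68, PLK2 at -1.01 and SPRY4 at -1.05 (limma adjusted p = 0.0497, 0.0268 and 0.0440). For the DNA replication list the mean difference was 0.33 for replicate 2 minus replicate 1 and 0.28 for replicate 3 minus replicate 2. For the amino acid response list it was -0.39 and 0.07, and ASNS in replicate 2 was 7.28, 7.26, 6.92 and 6.89 in the 4 clones. GDF15 in replicate 2 was 7.52, 7.84, 6.92 and 7.67. Both genes were lower in replicate 2 than in replicate 1 in every clone, by 1.09 for ASNS and 1.44 for GDF15 on average, and their replicate 3 minus replicate 2 differences were 0.08 and -0.48. For SPRY4 and DUSP6 replicate 2 minus replicate 1 gave -0.38 and -0.28, and replicate 3 minus replicate 2 gave -1.05 and -0.97.

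**Figure D5:**
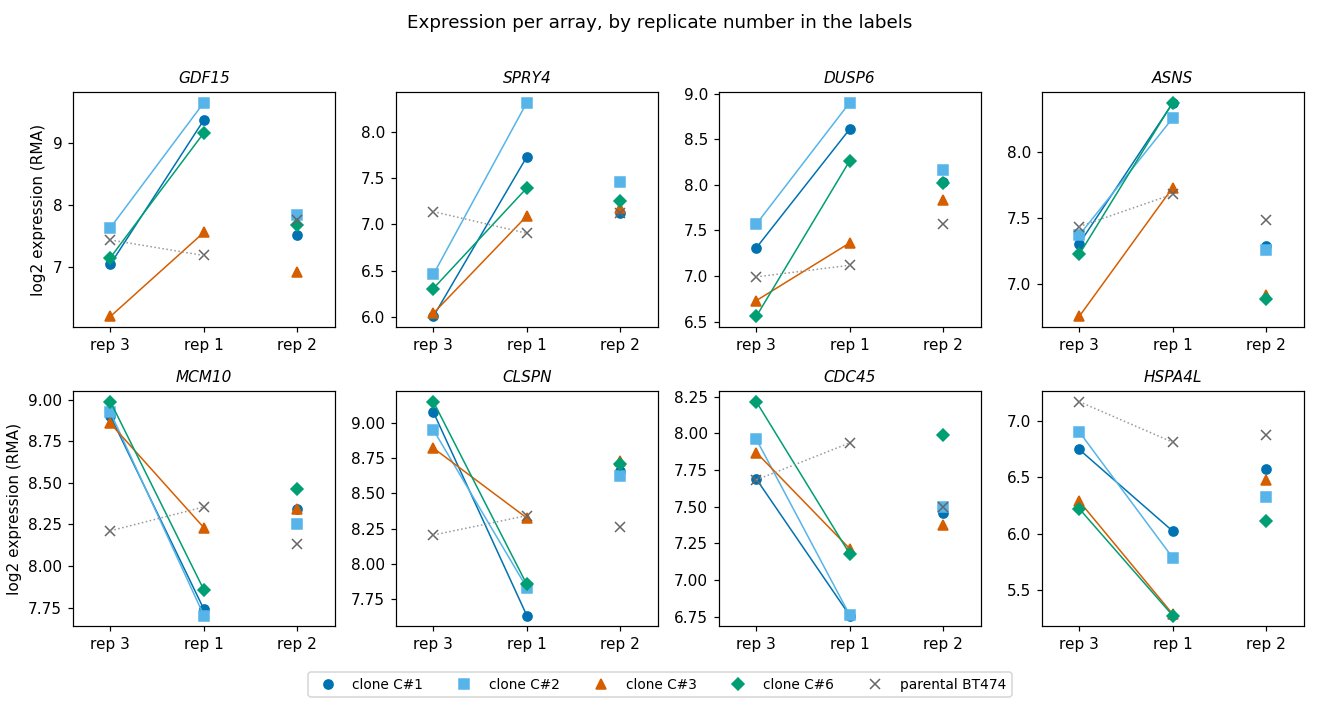
Expression (log2, vertical) of 8 genes in each array by replicate number (horizontal), with lines joining replicate 3 and replicate 1 of a clone (solid) and of the parental line (dotted). GDF15, SPRY4, DUSP6 and ASNS are lower in replicate 3 than in replicate 1 of all 4 clones, and MCM10, CLSPN, CDC45 and HSPA4L are higher.

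Deviations from the clone mean were correlated between arrays of different clones, across the genes tested. Between replicate 1 arrays r ranged from 0.14 to 0.46 over 6 clone pairs, with a median of 0.22 and the highest value between clones C#1 and C#2. Between replicate 3 arrays it ranged from -0.12 to 0.34 with a median of 0.13. The 3 pairs among C#1, C#2 and C#6 had 0.34, 0.19 and 0.24, and those with C#3 had -0.12, -0.03 and 0.07. Between replicate 2 arrays it ranged from -0.05 to 0.17 with a median of 0.07. Arrays with different numbers ranged from -0.38 to 0.23 over 36 combinations, with a median of -0.10. These coefficients describe genes of the same 12 arrays, the deviations of a clone sum to 0 over its 3 arrays, and genes are not independent replicates.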

How the data were processed

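The authors deposited log2 expression values, 1 per probe set and array. The submitters' processing notes name RMA, Expression Console 1.4.1 from Affymetrix and a Transcriptome Analysis Console, without the step of each. RMA makes the distributions of arrays alike, so a common shift of most genes would be hidden. Of 53617 probe sets, 16098 (30.0%) carried 1 gene symbol, 0 several and 37519 none, and those without were not tested. A probe set was used where its signal exceeded the 40th percentile of that array on 3 or more arrays, and the brightest one stood for a gene, which left 12147 genes. No 2 columns were identical.

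The 4 replicate 3 minus replicate 1 differences were tested in R 4.3.3 by limma 3.58.1 (linear fit with empirical Bayes, clone as a block, 3 residual degrees of freedom, prior 7.34), with Benjamini-Hochberg adjustment over all genes and a threshold of 0.05. Lists are described by counts, with no test. The members and the lists were chosen with earlier results of these data known. Named genes were up to 15 higher and 15 lower genes ranked by their smallest difference over the clones, up to 4 members per list with the lowest p, the 10 most variable genes within clones, and a set of fixed genes, not all of which are reported here. Further members of a list that passed, and genes said to be named after their values were seen, were added. On simulated data for this comparison, 200 of 12147 genes were changed. The test found 0.490 of 1.5-fold, 0.851 of 2-fold and 0.991 of 4-fold changes, with a false share of 0.0336 among its calls. The simulated noise was independent between genes and arrays, whereas deviations of the real arrays were correlated between clones. These shares therefore need not hold for the real data. The alternatives were other filters, renewed quantile normalization, centring, averaging probe sets, trend and robust eBayes, array weights, an adjusted p of 0.1, leaving out each pair, clones C#1 and C#2, whose arrays lie close together, as 1 pair, no clone term, and fits of 12 or 15 arrays. Promoters came from the RefSeq table of GRCh38.p14. Python 3.11.15 and matplotlib 3.10.9 drew the figures. The number of arrays limits the precision.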

Additional observations from a re-analysis of the deposited data

Results flagged for a closer look

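Of 179 values checked, 10 had 1 clone whose difference between replicate 3 and replicate 1 stood far from those of the other 3 clones, where chance alone gives about 1 in 20. In clone C#3, MCM10 differed by 0.627 against 1.13 to 1.22 in the other clones, and E2F8 by 0.130 against 0.91 to 1.06. In clone C#1, HMGCS1 differed by 0.106 against -0.38 to -0.31, MT2A by -0.0617 against 0.71 to 0.74, ACSL1 by -0.0759 against -0.38 to -0.33 and MIR612 by -0.432 against -0.63 to -0.60. The mean of the small nucleolar RNA genes in clone C#1 was -0.282 against -0.01 to 0.04 elsewhere. In clone C#6, EPPK1 differed by -1.10 against -0.80 to -0.76 and ARRDC4 by -0.299 against -0.55 to -0.54. In clone C#2, GPX2 differed by 0.0594 against 0.33 to 0.37.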

How the results depend on the processing

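The calls depended on the setting. Of 67 genes that passed the test and were followed, 0 kept their call in all of the 16 alternatives (15 for MIR205, MIR3189, OSCP1 and ULBP1). Each had 1 sign in all 4 clones, so that leaving out a pair could not turn it. GDF15 and SPRY4 lost it in 1, the fit without the clone block. That unpaired fit, with no replicate block for the clone, called 0 higher and 0 lower genes with limma, and 912 genes had an unadjusted p below 0.05. The mean differences of all 33 lists moved by less than 1 SD over the clones under renewed quantile normalization and centring. The DNA replication list, with 22 called genes, had 9 with clones C#1 and C#2 as 1 pair, 6 with 15 arrays, 35 with 12 arrays and 0 without the clone block. The calls in replicate 3 numbered 64 higher and 46 lower. They were 106 and 76 under a stricter filter, 166 and 102 with trend and robust eBayes, 163 and 119 at an adjusted p of 0.1, 25 and 17 with clones C#1 and C#2 as 1 pair, 189 and 113 with 12 arrays, and 25 and 27 with 15 arrays. Leaving out 1 pair gave 0 to 164 higher and 2 to 61 lower genes. Beyond what defines each alternative (fewer pairs, fewer genes, a wider threshold), the cause was not tested. For replicate 2 minus replicate 1 the count was 106, and 186 under the stricter filter, 252 with trend and robust eBayes, 274 with array weights, 282 at the wider threshold and 3 to 44 with a pair left out. For replicate 3 minus replicate 2 the count was 3, and 8 with trend and robust eBayes, 7 with array weights and 0 to 1 with a pair left out. The test against the parental line called 0 genes, and 1 with trend and robust eBayes and 0 to 1 with a pair left out. Signs changed for 5 genes that did not pass. With a pair left out, HK2 ranged from -0.0298 to 0.00881, MIR1224 from -0.165 to 0.411, CCNB1 from -0.121 to 0.00850, LINC00173 from -1.01 to 0.185 and PLK1 from -0.0247 to 0.147.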

Other observations

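Among the most variable genes within clones, some showed no call between the replicate numbers. LINC00173, a long noncoding RNA gene, had a pooled SD within clones of 0.72, and 6.90% of its within-clone sum of squares lay between numbers. Its values were 4.74, 4.53, 6.01 and 3.46 in replicate 3 of the 4 clones, against 5.28, 4.95, 4.49 and 5.53 in replicate 1. It was higher in replicate 3 in clone C#3 and lower in the other clones. KLK12, a secreted protease of the kallikrein family, had a pooled SD of 0.63 with 38.8% between numbers, against a median of 27.7% over all genes. It was 5.97, 6.71, 6.53 and 6.12 in replicate 3 against 6.00, 6.80, 7.59 and 7.19 in replicate 1, so clones C#3 and C#6 differed by about 1 log2 unit and C#1 and C#2 by less than 0.1.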
